A study of Mus musculus with 8 samples.

Results

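The insulin-like growth factor (IGF) system was followed as 10 listed genes: the ligand genes Igf1 and Igf2, the receptor gene Igf1r, the binding protein genes Igfbp2, Igfbp3, Igfbp4 and Igfbp5, and the RNA-binding protein genes Igf2bp1, Igf2bp2 and Igf2bp3. A gene was taken where a probe set of the array carried its symbol alone, and 9 of the 10 had such a probe set, among 19938 genes in all. Igf2bp2 had none and is not analysed here. Where a gene had several probe sets, the one with the highest mean over all 8 arrays was used, which decided only for Igf2bp1. Probe sets were thus chosen by that mean, on which nothing is tested, but the genes themselves were chosen with earlier results of these data known.

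The study's 8 arrays held total RNA of cultured mouse spermatogonial stem cells, the germ cells that renew themselves and feed sperm production. Of these, 2 came from serial-transplant cells, labelled with a donor age of 1500 days and kept in culture for 14 to 18 months (serial-transplant long culture). In 3 arrays the donors were 8 days old and culture had also lasted 14 to 18 months (young-donor long culture), and in 3 the donors were 8 days old and culture had lasted 7 to 10 weeks (young-donor short culture). All 3 groups were cultured, so none shows cells fresh from the testis, and donor age and serial transplantation cannot be told apart. The study compared expression between these groups to find genes that differ with donor and culture age. No strain, transgene or pooling is given in the labels, and the labels do not say that replicates came from separate animals or cultures, and the p-values rest on whatever spread, technical or not, these arrays have among themselves.

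Values are log2 signals per probe set after RMA, a method that corrects background, normalizes arrays and summarises probes. Array medians lay between 6.90 and 6.98, and the median of all 28939 tested probe sets, 6.94, serves as a mark of dim signals. With 2 or 3 arrays a group, their number limits how precise a change can be. A change was called at a Benjamini-Hochberg adjusted p under 0.05 in limma, with adjustment over all tested probe sets. Of 20 germ cell markers, 18 in serial-transplant long culture, 19 in young-donor long culture and 19 in young-donor short culture were on average brighter than that median. Young-donor short-culture replicate 2 stood apart, correlating at 0.991 and 0.990 with the other replicates of its group, which correlated at 0.996 with each other.

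IGF1 and IGF2 are secreted peptides related to insulin that drive growth and survival through IGF1R, a receptor tyrosine kinase that signals through insulin receptor substrates, PI3K and Akt. IGF2R captures IGF2 and carries it to lysosomes without growth signalling, and the IGF binding proteins hold the ligands outside cells and control their access to the receptor until proteases cut them. The IGF2BP proteins bind mRNAs, Igf2 mRNA among them, and IGF2BP1 and IGF2BP3 belong mainly to embryonic and germline cells. In the testis IGFs come from somatic cells as well as germ cells, and they are known to act on spermatogonia and on Sertoli and Leydig cells.

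Compared with young-donor short culture, serial-transplant long culture had lower Igf2, Igfbp4 and Igf1 and higher Igfbp2, so that 4 of the 9 genes were called (3 lower, 1 higher) where 8.74% of all probe sets were (3.58% higher and 5.15% lower). Since the 9 genes were chosen with earlier results of these data known, their counts are descriptions and no test of the list. Young-donor long culture had lower Igfbp4 only, 1 of 9 genes, where 11.3% of all probe sets were called against young-donor short culture (5.44% higher and 5.83% lower, that is 1573 and 1687 probe sets, or 1965 and 1334 with each array centred on its median). Between serial-transplant and young-donor long culture none of the 9 was called, nor was any of all 28939 probe sets (0%), although 2 of the 9 and 2079 of all probe sets (7.18%) had an unadjusted limma p under 0.05. The 2 were Igf2 and Igfbp2. Igf1r, Igf2bp1, Igf2bp3, Igfbp3 and Igfbp5 were not called in any comparison. Each pair of these comparisons shares a group of arrays, so their values are not independent of one another. The median log2 change of the 9 genes was -0.08, against -0.01 over all genes, for serial-transplant long over young-donor short culture. It was -0.15, against 0.01 over all genes, for serial-transplant over young-donor long culture, and 0.10, against -0.04 over all genes, for long over short culture of young-donor cells. Without young-donor short-culture replicate 2 the counts of called genes were 4, 1 (Igfbp4) and, between the long cultures, 1 (Igf2). These are bulk samples, in which fewer cells of a type and less RNA per cell cannot be told apart.

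**Figure D1:**
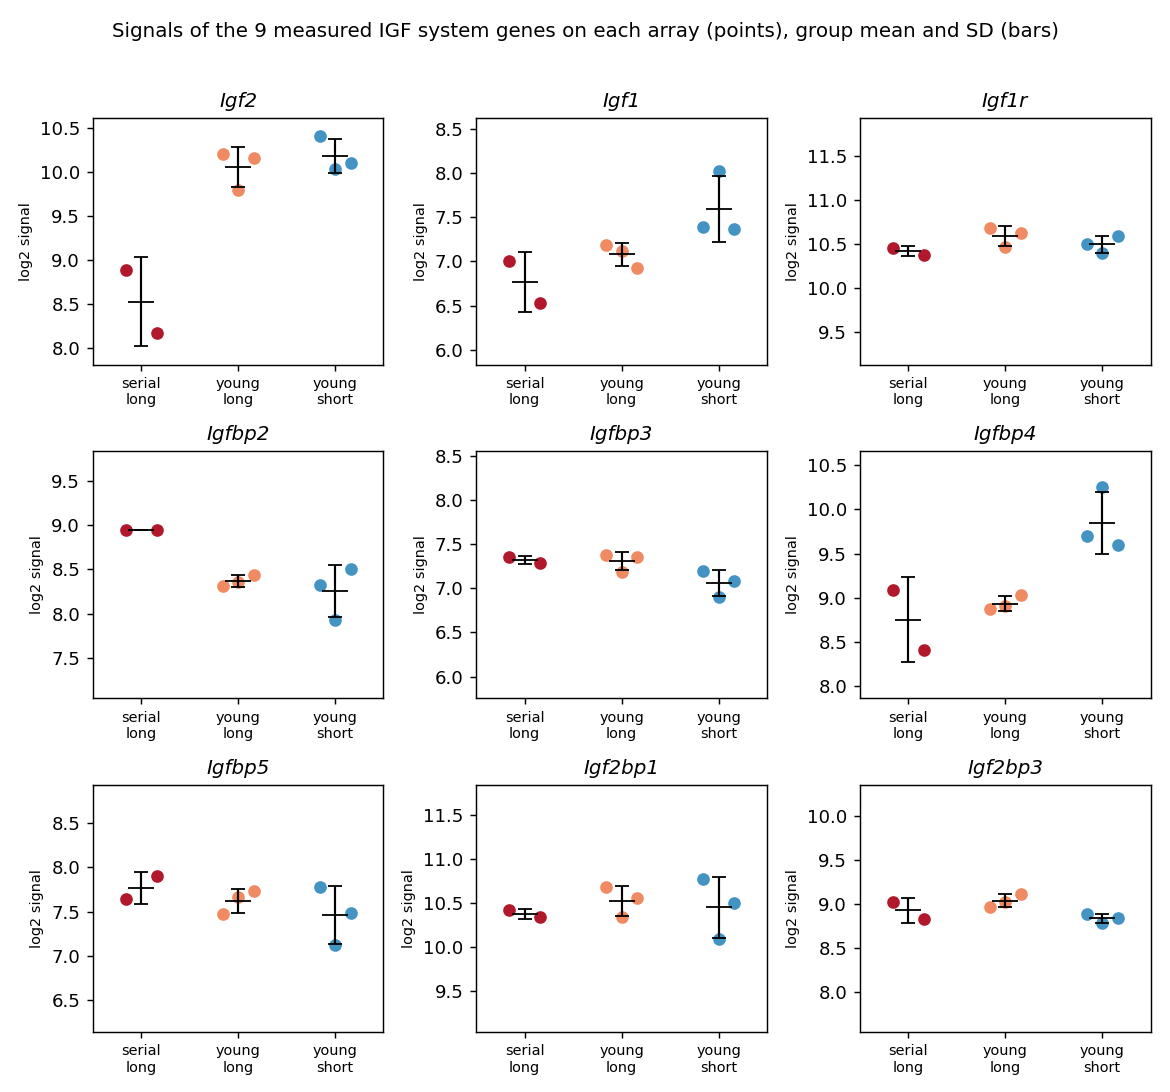
Log2 RMA signal of each of the 9 measured IGF system genes (vertical axis, each panel spanning the same number of log2 units) in serial-transplant long, young-donor long and young-donor short culture. Points are arrays, and bars are the group mean and SD. Both serial-transplant arrays lie below all 6 young-donor arrays for Igf2 (8.88 and 8.17) and above all of them for Igfbp2 (8.95 and 8.95).

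Igf2, the paternally expressed fetal growth factor gene, set the serial-transplant cells apart from both young-donor groups. Its log2 signal was 8.88 and 8.17 in the serial-transplant arrays, 10.20, 9.79 and 10.16 in young-donor long culture, and 10.40, 10.03 and 10.10 in young-donor short culture. The serial-transplant arrays did not overlap with either young-donor group, while the young-donor groups overlapped with each other. Group means were 8.53 ± 0.50 (SD, n = 2) in serial-transplant long culture, 10.05 ± 0.23 (n = 3) in young-donor long culture and 10.17 ± 0.20 (n = 3) in young-donor short culture. Igf2 thus fell 3.13-fold in serial-transplant long culture against young-donor short culture (log2 change -1.65 ± 0.20 SE, limma adjusted p = 0.00224). Against young-donor long culture the log2 change was -1.52 ± 0.20 (95% interval -1.97 to -1.08), which ranked 4 by p among all probe sets and missed the threshold (unadjusted p = 1.01e-05, limma adjusted p = 0.0627). It passed in limma when only those 2 groups were fitted (adjusted p = 0.0441), with the replicate number as a block (0.00671), with array weights (0.0102) and without young-donor short-culture replicate 2 (0.0415), and its adjusted p ran from 0.00671 to 0.707 over 16 alternatives. Without serial-transplant replicate 2, which had the lower Igf2 of the pair, the change was -1.30 (adjusted p = 0.0445) against young-donor short culture and -1.17 (0.707) against young-donor long culture. Leaving out 1 serial-transplant array leaves a lone array that is assumed to vary like the other groups. Long culture of young-donor cells by itself moved Igf2 by -0.12 ± 0.18 (95% interval -0.52 to 0.27, adjusted p = 0.711).

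The fibroblast markers, a list of 27 genes of which 26 were measured, had lower sums in both long-culture groups than in young-donor short culture. Their summed linear signal was 27215 and 18067 in the serial-transplant arrays, 26827 to 27914 in young-donor long culture and 41167 to 62117 in young-donor short culture. Serial-transplant replicate 1 lay within the range of young-donor long culture in this sum, with an Igf2 signal of 8.88 against 9.79 to 10.20 there, and serial-transplant replicate 2 had both the lowest sum and the lowest Igf2 (8.17) of all arrays. The part of fibroblast RNA in the Igf2 result was not tested. Between serial-transplant and young-donor long culture the fibroblast list had a median of -0.24, against 0.01 over all genes. No listed fibroblast gene passed there, but neither did any of the 28939 probe sets, so the missing calls say nothing about this list. The 20 germ cell markers summed to 31298 and 31629 in the serial-transplant arrays, 29149 to 30714 in young-donor long culture and 21556 to 28526 in young-donor short culture. Against young-donor short culture 4 were called higher and 1 lower, Id4 (-0.83), in serial-transplant long culture. In young-donor long culture 6 were called higher and 2 lower, Id4 (-0.80) and Sohlh1 (-0.49). Over all probe sets 3.58% and 5.44% were called higher there, and 5.15% and 5.83% lower. With each array left out in turn, the young-donor calls of Nanos3 and Id4 held. Those of Dazl, Tex101, Piwil4, Ret, Lin28a and Sohlh1 were each lost without 1 array or another (limma adjusted p up to 0.114). The serial-transplant call of Dnd1 was lost without young-donor short-culture replicate 1 or 2. All serial-transplant calls rest on 2 arrays, and calls from a lone array are not counted.

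RefSeq places 44 genes within 500 kb of Igf2 on chromosome 7, of which 25, Igf2 included, had a probe set. This neighbourhood was chosen after the Igf2 values were seen, and H19, the maternally expressed RNA gene next to Igf2, is not analysed here. Between serial-transplant and young-donor long culture the 24 other genes changed by -0.22 to 0.29, beside the -1.52 of Igf2. None of the 24 was called in limma (lowest adjusted p = 0.686). Nor was Igf2 (adjusted p = 0.0627) or any other of the 28939 probe sets, so calls do not separate Igf2 from its neighbours there. Ins2, the insulin gene that borders Igf2, changed by 0.25 ± 0.15 there. Against young-donor short culture 3 of the 24 fell in serial-transplant long culture, namely Lsp1, a leukocyte-specific actin-binding protein gene (-1.20 ± 0.28), Cd81, a tetraspanin gene (-0.94 ± 0.17), and Ctsd, the gene of the lysosomal protease cathepsin D (-0.63 ± 0.14). Over all probe sets 8.74% were called there. The same 3 names, where 11.3% of all probe sets were called, were lower in young-donor long culture against young-donor short culture, at -0.98, -0.73 and -0.72. Without serial-transplant replicate 2 the 3 serial-transplant calls were lost (limma adjusted p between 0.153 and 0.288), and in young-donor long culture that of Lsp1 was lost without any of its 3 replicates (up to 0.105) and that of Cd81 without replicate 3 (0.0531).

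**Figure D2:**
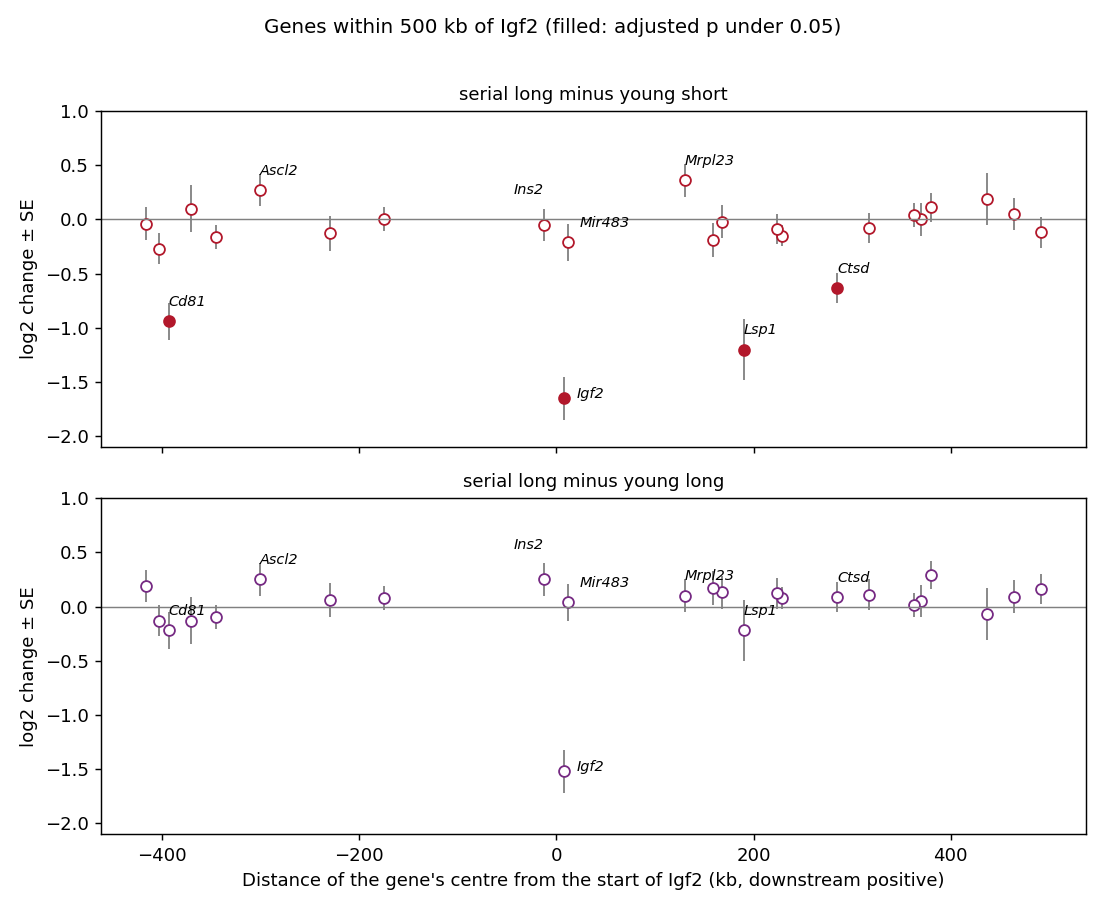
Log2 change with its SE (vertical axis) of the measured genes within 500 kb of Igf2, placed by the distance of the gene's centre from the start of Igf2 (horizontal axis, kb), for serial-transplant long culture against young-donor short culture (top) and against young-donor long culture (bottom). Filled points passed an adjusted p of 0.05. Igf2 is the lowest point in both panels, at -1.65 and -1.52, while Ins2 and Mir483 on either side of it lie near 0.

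Mir483, a microRNA gene that lies inside Igf2, had its own probe set, and its groups overlapped. The signal was 7.91 and 7.94 in serial-transplant long culture, 7.86, 8.12 and 7.67 in young-donor long culture, and 7.83, 8.32 and 8.27 in young-donor short culture. The change was 0.04 ± 0.17 against young-donor long culture (limma adjusted p = 0.978) and -0.21 ± 0.17 against young-donor short culture (0.531). A probe set for a hairpin cannot separate the mature miRNA from its precursor. The mature arms are shown because they are the other product of the Igf2 locus on the array. They are given 5′ to 3′ from RefSeq (GRCm38.p6, minus strand, mmu-miR-483-3p at chr7:142654932-142654952 and mmu-miR-483-5p at chr7:142654968-142654989) with the seed, bases 2 to 8, in capitals. The arms have different seeds.
mmu-miR-483-3p: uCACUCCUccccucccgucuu
mmu-miR-483-5p: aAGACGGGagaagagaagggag

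Igf1, the ligand gene made by many mesenchymal cells, fell in serial-transplant long culture against young-donor short culture. The signals were 7.01 and 6.53 in serial-transplant long culture, 7.19, 7.12 and 6.93 in young-donor long culture, and 7.39, 8.03 and 7.37 in young-donor short culture. Every long-culture array was below every short-culture array, and the serial-transplant arrays overlapped with young-donor long culture. The highest value belonged to young-donor short-culture replicate 2, and most values lay close to the median of all probe sets, where RMA gives no detection call. The log2 change was -0.83 ± 0.20 (limma adjusted p = 0.0292) for serial-transplant long over young-donor short culture, -0.31 ± 0.20 (0.808) for serial-transplant over young-donor long culture and -0.52 ± 0.18 (0.0932) for long over short culture of young-donor cells. The first of these was -0.58 (0.340) without serial-transplant replicate 2 and -0.61 (0.0412) without young-donor short-culture replicate 2. It also missed the threshold after quantile normalization (0.0503) and with only those 2 groups in the fit (0.0786), within a range of 0.0181 to 0.340 over all alternatives. The third was -0.30 (0.234) without young-donor short-culture replicate 2.

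Igfbp4, which encodes a binding protein that mostly holds IGFs away from the receptor until the protease PAPPA cuts it, was the gene lower in both long-culture groups. Its signal was 9.09 and 8.41 in serial-transplant long culture, 8.87, 8.90 and 9.03 in young-donor long culture, and 9.70, 10.25 and 9.60 in young-donor short culture. All 5 long-culture arrays lay below the 3 short-culture arrays, with the young-donor long-culture values inside the range of the serial-transplant pair. Igfbp4 fell 2.14-fold in serial-transplant long culture against young-donor short culture (log2 change -1.10 ± 0.21, limma adjusted p = 0.0105) and 1.89-fold in young-donor long culture against young-donor short culture (-0.92 ± 0.19, adjusted p = 0.0131). Between serial-transplant and young-donor long culture it changed by -0.18 ± 0.21 (95% interval -0.65 to 0.28, adjusted p = 0.908). The serial-transplant call was lost without serial-transplant replicate 2 (-0.76, adjusted p = 0.171, in a range of 0.00604 to 0.171 over the alternatives). The young-donor call was lost without young-donor long-culture replicate 1 (-0.88, adjusted p = 0.0529, in a range of 0.00663 to 0.0529).

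Fibroblast markers moved with Igf1 and Igfbp4. Of the 26 measured, 20 fell and none rose in serial-transplant long culture against young-donor short culture (median -1.07, against -0.01 over all genes). Over all probe sets 5.15% were called lower there. In young-donor long culture against young-donor short culture 18 fell and none rose (median -0.71, against -0.04), where 5.83% of all probe sets were called lower. Without serial-transplant replicate 2, which leaves a lone array in that group, the first median was -0.77, and calls are not counted. Without young-donor long-culture replicates 1, 2 and 3 the second count was 10, 11 and 8, where 786, 1080 and 611 of all probe sets were called lower. Without young-donor short-culture replicate 2 it was 13, where 1255 were. In each group 23 of the 26 were on average brighter than the median of all probe sets. Young-donor short-culture replicate 2 had the highest fibroblast sum (62117), Igf1 (8.03) and Igfbp4 (10.25) of all arrays, and serial-transplant replicate 2 the lowest of each (18067, 6.53 and 8.41). The part of fibroblast RNA in the Igf1 and Igfbp4 results was not tested. Macrophage markers, 13 measured, summed to 668 to 777 in serial-transplant long culture, 714 to 748 in young-donor long culture and 1096 to 1488 in young-donor short culture. On average 1 of the 13 was brighter than the median of all probe sets in serial-transplant long culture, 1 in young-donor long culture and 5 in young-donor short culture. Laptm5, Fcer1g, Ptprc and Tyrobp were called lower in serial-transplant and in young-donor long culture (list medians -0.12 and -0.19), and Mrc1 in the former. Adgre1, Csf1r, Cd14, Cd68, Cd163, Itgam, Lyz1 and Lyz2 were not called. The serial-transplant call of Tyrobp was lost without any of 5 arrays. All serial-transplant calls in these lists rest on 2 arrays. Calls here and in the lists that follow are against young-donor short culture, where 8.74% and 11.3% of all probe sets were called. Leydig cell markers, 7 measured, summed to 332 in both serial-transplant arrays, 307 to 336 in young-donor long culture and 513 to 858 in young-donor short culture. Sertoli cell markers, 11 measured, summed to 1529 to 2015 in serial-transplant long culture, 1840 to 1909 in young-donor long culture and 1928 to 2699 in young-donor short culture. Kitl was called lower in serial-transplant and in young-donor long culture (-1.68 and -1.52) and Wt1 higher in both (0.73 and 0.90). The serial-transplant call of Wt1 was lost without any of 7 arrays, while the young-donor calls of Kitl and Wt1 held with each array left out. Sox9 was called lower in serial-transplant long culture (-1.07). Peritubular myoid markers, 9 measured, summed to 1026 to 1092 in serial-transplant long culture, 1034 to 1093 in young-donor long culture and 1229 to 1641 in young-donor short culture, where the sums did not overlap with those of long culture. Acta2, also on the fibroblast list, was called lower in serial-transplant and in young-donor long culture (-1.21 and -1.24). Myh11 was called higher in young-donor long culture (0.50). The other myoid markers were not called, and the list medians were -0.08 and -0.13. Endothelial markers, 10 measured, summed to 767 to 832 in serial-transplant long culture, 789 to 978 in young-donor long culture and 859 to 891 in young-donor short culture.

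**Figure D3:**
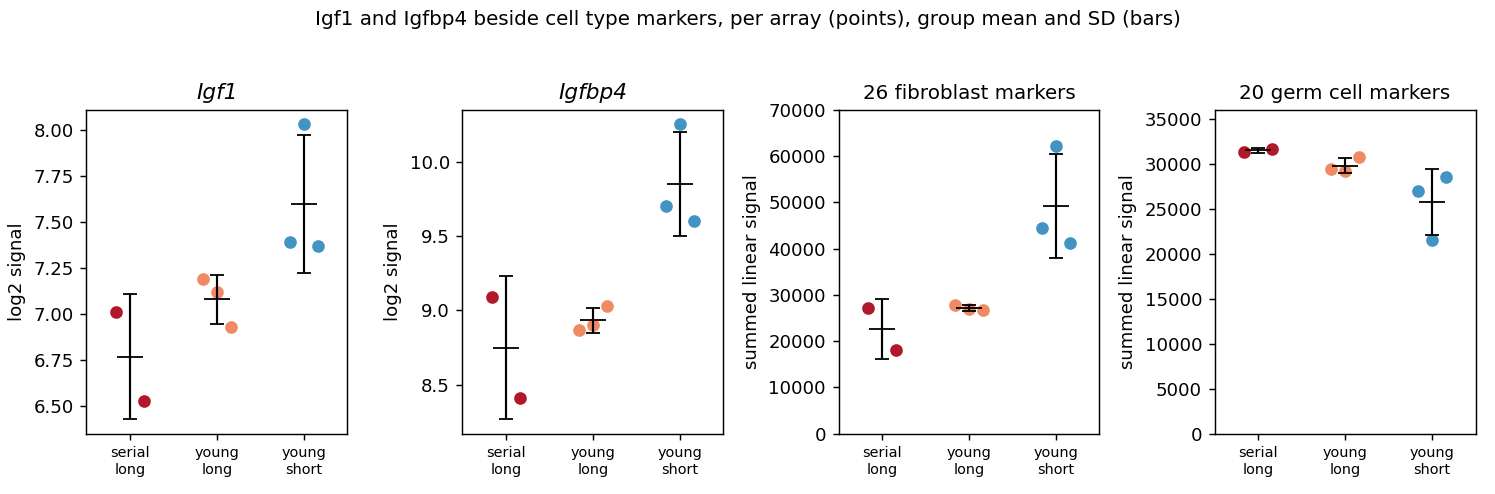
Log2 signal of Igf1 and Igfbp4, and the summed linear signal of 26 fibroblast and 20 germ cell markers (vertical axes), in serial-transplant long, young-donor long and young-donor short culture. Points are arrays and bars the group mean and SD. The fibroblast sum, like Igf1 and Igfbp4, is highest in the 3 young-donor short-culture arrays (41167 to 62117).

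Igfbp2, which encodes a binding protein secreted by many embryonic and epithelial cells, was the gene that rose. Its signal was 8.95 and 8.95 in serial-transplant long culture, 8.31, 8.36 and 8.44 in young-donor long culture, and 8.32, 7.93 and 8.51 in young-donor short culture. Both serial-transplant arrays lay above all 6 young-donor arrays, and the young-donor groups overlapped. The rise against young-donor short culture was 1.62-fold (log2 change 0.70 ± 0.15, limma adjusted p = 0.0171). The change against young-donor long culture was 0.58 ± 0.15 (unadjusted p = 0.00262, adjusted p = 0.419) and that of young-donor long over young-donor short culture 0.12 ± 0.14 (adjusted p = 0.635). The call against young-donor short culture kept its size of 0.70 but not its threshold without serial-transplant replicate 1 (adjusted p = 0.0826), without replicate 2 (0.161) and with only those 2 groups in the fit (0.0577), in a range of 0.00510 to 0.161. Without young-donor short-culture replicate 2, which had the lowest value, the change was 0.54 (0.0169).

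**Figure D4:**
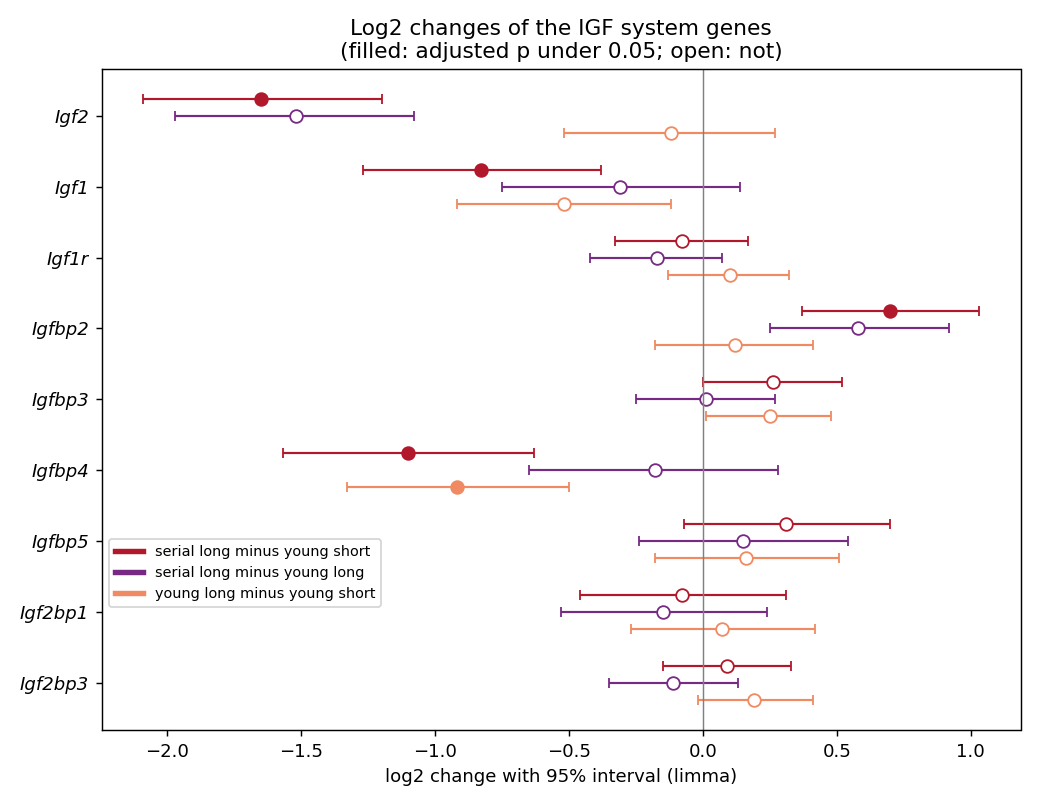
Log2 change (horizontal axis) of each measured IGF system gene with its 95% interval from limma, for serial-transplant long minus young-donor short culture, serial-transplant minus young-donor long culture, and young-donor long minus young-donor short culture. Filled points passed an adjusted p of 0.05. Igf2, Igf1 and Igfbp4 (-1.65, -0.83 and -1.10) and Igfbp2 (0.70) passed in the first comparison and Igfbp4 (-0.92) in the third.

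The promoter windows of the genes called are shown so that they can be set side by side, since 3 of them were lower and 1 higher in the same comparison. RefSeq promoter windows (GRCm38.p6), from 250 bases before to 50 after a gene's start, were found for 8 of the 9 genes. For Igf2, which has 4 starts in the table, the one farthest downstream is printed, and for Igfbp2 the first of its starts. Capitals mark GGGCGG (a GC box, or CCGCCC on the other strand) and TATAAA (or TTTATA), sought on both strands. These motifs do not overlap each other in the windows printed. Of 32851 windows of that length, 35.7% hold GGGCGG and 13.6% hold TATAAA. All are written 5′ to 3′ on the gene's strand.
Igf2 chr7:142657447-142657746, minus strand: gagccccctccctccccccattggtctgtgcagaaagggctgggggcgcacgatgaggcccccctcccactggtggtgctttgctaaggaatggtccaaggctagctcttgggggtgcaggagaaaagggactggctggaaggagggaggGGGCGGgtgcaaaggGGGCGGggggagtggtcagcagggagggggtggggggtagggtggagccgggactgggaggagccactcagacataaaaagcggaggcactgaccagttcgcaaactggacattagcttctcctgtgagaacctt
Igf1 chr10:87860861-87861160, plus strand: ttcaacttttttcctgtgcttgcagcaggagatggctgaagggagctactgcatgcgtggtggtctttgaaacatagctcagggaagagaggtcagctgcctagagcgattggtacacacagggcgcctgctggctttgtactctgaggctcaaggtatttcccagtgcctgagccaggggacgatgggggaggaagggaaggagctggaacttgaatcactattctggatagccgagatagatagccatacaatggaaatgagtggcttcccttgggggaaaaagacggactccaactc
Igfbp4 chr11:99040994-99041293, plus strand: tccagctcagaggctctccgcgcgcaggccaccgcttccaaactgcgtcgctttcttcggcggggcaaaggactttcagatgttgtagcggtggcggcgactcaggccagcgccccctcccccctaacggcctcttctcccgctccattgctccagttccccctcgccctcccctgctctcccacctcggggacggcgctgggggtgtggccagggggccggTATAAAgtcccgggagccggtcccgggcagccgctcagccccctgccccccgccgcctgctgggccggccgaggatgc
Igfbp2 chr1:72824230-72824529, plus strand: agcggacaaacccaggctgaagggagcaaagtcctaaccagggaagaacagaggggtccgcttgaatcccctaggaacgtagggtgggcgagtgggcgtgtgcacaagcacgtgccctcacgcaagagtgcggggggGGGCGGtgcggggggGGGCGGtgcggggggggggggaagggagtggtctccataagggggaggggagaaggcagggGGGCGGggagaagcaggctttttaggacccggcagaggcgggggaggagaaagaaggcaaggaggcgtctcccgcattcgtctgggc

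The Igf2 window printed holds 2 GC boxes and the Igfbp2 window printed 3, the most of each gene's windows. The other Igf2 windows hold 1, 0 and 0 GC boxes, with 24, 14 and 2 CpG dinucleotides, and the other Igfbp2 window holds 0, with 14. The Igfbp4 window holds none but has TATAAA beginning at -28 from the start, and the Igf1 window holds neither motif. CpG dinucleotides number 7 in the printed Igf2 window, 6 in that of Igf1, 27 in that of Igfbp4 and 18 in that of Igfbp2, where the median of all windows is 7. No methylation or binding was measured, and the probe sets do not show which start is used.

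Igf1r, the signalling receptor of both ligands, stayed within 0.30 log2 units on all 8 arrays. Its signal was 10.46 and 10.38 in serial-transplant long culture, 10.68, 10.47 and 10.63 in young-donor long culture, and 10.50, 10.40 and 10.59 in young-donor short culture. The serial-transplant pair lay below young-donor long culture by less than 0.10 at the nearest arrays and overlapped with young-donor short culture. The log2 change was -0.08 ± 0.11 for serial-transplant long over young-donor short culture (95% interval -0.33 to 0.17, limma adjusted p = 0.773), -0.17 ± 0.11 for serial-transplant over young-donor long culture (-0.42 to 0.07, 0.801) and 0.10 ± 0.10 for long over short culture of young-donor cells (-0.13 to 0.32, 0.593).

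The RNA-binding protein genes Igf2bp1 and Igf2bp3 showed no called change. Igf2bp1, which binds Igf2, Myc and Actb mRNAs, had signals of 10.42 and 10.34 in serial-transplant long culture, 10.68, 10.34 and 10.56 in young-donor long culture, and 10.77, 10.09 and 10.50 in young-donor short culture. The short-culture arrays spanned the values of both long-culture groups, with replicate 2 the lowest of all arrays. Its changes were -0.08 ± 0.18 (95% interval -0.46 to 0.31) for serial-transplant long over young-donor short culture, -0.15 ± 0.18 (-0.53 to 0.24) for serial-transplant over young-donor long culture and 0.07 ± 0.16 (-0.27 to 0.42) for long over short culture of young-donor cells. The second Igf2bp1 probe set ranged from 6.91 to 8.17 over the arrays and changed by -0.18 ± 0.27, -0.49 ± 0.27 and 0.31 ± 0.24 in the same 3 comparisons, also without a call. Igf2bp3, a paralog found mainly in embryonic and cancer cells, had signals of 9.03 and 8.83 in serial-transplant long culture, 8.97, 9.03 and 9.12 in young-donor long culture, and 8.89, 8.79 and 8.85 in young-donor short culture. Young-donor long culture lay above young-donor short culture without overlap, by 0.19 ± 0.10 (95% interval -0.02 to 0.41, limma adjusted p = 0.240). Against young-donor short culture the serial-transplant change was 0.09 ± 0.11 (-0.15 to 0.33).

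Igfbp3, the main carrier of IGFs in blood, and Igfbp5, a binding protein that attaches to the extracellular matrix, showed no called change, at signals close to the median probe set or above it. Igfbp3 had signals of 7.35 and 7.29 in serial-transplant long culture, 7.38, 7.19 and 7.35 in young-donor long culture, and 7.20, 6.90 and 7.08 in young-donor short culture. Its changes were 0.26 ± 0.12 (limma adjusted p = 0.236) for serial-transplant long over young-donor short culture and 0.25 ± 0.11 (0.167) for long over short culture of young-donor cells, neither past the threshold. Igfbp5 had signals of 7.64 and 7.90 in serial-transplant long culture, 7.47, 7.67 and 7.73 in young-donor long culture, and 7.78, 7.12 and 7.48 in young-donor short culture. All groups overlapped, and its largest change was 0.31 ± 0.18 (95% interval -0.07 to 0.70) for serial-transplant long over young-donor short culture.

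Counted by groups that do not overlap, with no test, 5 of the 9 genes separated serial-transplant long from young-donor short culture (37.3% of all probe sets did), 3 separated serial-transplant from young-donor long culture (25.7%) and 3 separated long from short culture of young-donor cells (31.4%). Across the 8 arrays, which share culture groups, Igf1 ran with Igfbp4 (Pearson r = 0.94) and against Igfbp5 (-0.86) and Igfbp2 (-0.83), and Igf2 ran against Igfbp2 (-0.80). These correlations are descriptions over 8 arrays.

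The genes whose signals followed each member most closely over the 8 arrays were found among 10582 other genes brighter on average than the median probe set, by Pearson r. For Igf2 they were Itga1 (0.990), which encodes a collagen-binding integrin subunit, Rnf123 (0.971) and Rp2 (0.948). For Igf1 they were Antxr1 (0.992), Cdc42ep2 (0.991) and Sparc (0.990), a matrix glycoprotein gene that is also on the fibroblast list. For Igfbp4 they were Rcn3 (0.995), Arsa (0.992) and Steap3 (0.992), and for Igfbp2 Dnajb1 (0.992), an Hsp40 co-chaperone gene, Rnf14 (0.985) and Ripor1 (0.982). For Igfbp3 they included Dmrt1 (0.982), a transcription factor gene of germ and Sertoli cells, and for Igf2bp1 Eif4e (0.965), the cap-binding translation factor gene. The others were Agap1 (0.988) and Kpna3 (0.979) for Igfbp3 and Cramp1l (0.965) and Mark2 (0.961) for Igf2bp1. For Igf1r they were Fgd5 (0.951), Clec16a (0.948) and Ganab (0.933), for Igf2bp3 Wiz (0.947), Tns2 (0.931) and Cnot4 (0.924), and for Igfbp5 Mcm6 (0.970), Gars (0.963) and Ubac1 (0.963). With 8 arrays and so many genes compared, values this high are a ranking and no more.

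Of the remaining ligand and receptor genes, 6 of 8 listed were measured, and Igf2r was the one called, in both comparisons with young-donor short culture. Over all probe sets 8.74% were called there in serial-transplant long culture and 11.3% in young-donor long culture. Igf2r, which clears IGF2 from the cell surface, had signals of 10.72 and 10.48 in serial-transplant long culture, 10.65, 10.72 and 10.75 in young-donor long culture, and 11.28, 11.61 and 11.06 in young-donor short culture. All long-culture arrays lay below all short-culture arrays. It fell by 0.71 (SE 0.15, limma adjusted p = 0.0155) in serial-transplant long culture and by 0.61 (SE 0.14, adjusted p = 0.0173) in young-donor long culture, both on the log2 scale against young-donor short culture. The first call was lost without serial-transplant replicate 2 (0.205), and the second without young-donor long-culture replicate 1 or 3 (up to 0.0652). Insr, the insulin receptor gene, changed by 0.01 ± 0.15 and -0.18 ± 0.13 in these 2 comparisons.

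Of the other binding proteins and partners, 5 of 6 were measured and Igfbp7 alone was called, lower in both comparisons with young-donor short culture. Of all probe sets 5.15% were called lower in serial-transplant long culture and 5.83% in young-donor long culture. Igfbp7, a low-affinity relative that is secreted by stromal and endothelial cells, had signals of 7.83 and 7.61 in serial-transplant long culture, 7.97, 7.50 and 7.90 in young-donor long culture, and 8.80, 8.46 and 8.32 in young-donor short culture. It fell by 0.81 (SE 0.17, limma adjusted p = 0.0161, or 0.202 without serial-transplant replicate 2) in serial-transplant long culture and by 0.74 (SE 0.15, adjusted p = 0.0133) in young-donor long culture. Igfbp6, a binding protein that prefers IGF2, lay between 10.29 and 10.66 on all arrays. It changed by -0.02 ± 0.14 in serial-transplant long culture and 0.12 ± 0.12 in young-donor long culture.

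Proteases that cut IGF binding proteins and their inhibitors, all 12 listed measured, had 4 lower and none higher in each comparison with young-donor short culture, where 5.15% (serial-transplant long culture) and 5.83% (young-donor long culture) of all probe sets were called lower, beside the lower fibroblast markers (median -1.07 and -0.71). The list median was -0.28 in serial-transplant long culture, against -0.01 over all genes, and -0.25 in young-donor long culture, against -0.04. Mmp3 (-2.02 and -1.49), Mmp2 (-1.29 and -1.02) and Ctsd (-0.63 and -0.72) fell in serial-transplant and in young-donor long culture. Mmp3 and Mmp2 are matrix metalloproteinase genes, and Mmp2 is also on the fibroblast list. Timp1, an inhibitor of these enzymes, was the further call in serial-transplant long culture (-1.20, limma adjusted p = 0.0352) and Adam9, a membrane protease gene, in young-donor long culture (-0.54, 0.0209). Without serial-transplant replicate 2, Mmp3, Mmp2, Ctsd and Timp1 all lost their serial-transplant calls (limma adjusted p of 0.107, 0.0899, 0.240 and 0.318). The Adam9 call was lost without any of 3 arrays (up to 0.0790) and that of Timp1 without any of 7. Pappa, the main IGFBP4 protease gene, lay between 5.46 and 6.07 on all arrays, below the median of all probe sets.

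Of 17 receptor adaptors and their regulators, all measured, 3 fell and 1 rose in serial-transplant long culture and 2 fell and 1 rose in young-donor long culture, each against young-donor short culture. Over all probe sets 8.74% and 11.3% were called there, and the list medians were -0.06 and -0.05, against -0.01 and -0.04 over all genes. Irs1, the adaptor that links IGF1R to PI3K, had signals of 7.30 and 6.71 in serial-transplant long culture, 7.77, 7.56 and 7.64 in young-donor long culture, and 8.02, 8.33 and 7.82 in young-donor short culture. The 3 groups did not overlap, in that order from low to high. Irs1 fell by 1.05 (SE 0.18, limma adjusted p = 0.00737) in serial-transplant long culture against young-donor short culture, or 0.127 in adjusted p without serial-transplant replicate 2, while its changes of -0.65 ± 0.18 against young-donor long culture (0.427) and -0.40 ± 0.16 between the young-donor groups (0.150) did not pass. Shc1, an adaptor of the Ras pathway, fell in both (-0.47 and -0.57), Gab1, a docking protein gene, rose in both (0.56 and 0.49), Ptpn11, a phosphatase gene of the same pathway, fell in serial-transplant long culture (-0.49) and Sos2, a Ras activator gene, in young-donor long culture (-0.46). Each of these calls but that of Shc1 in young-donor long culture was lost when 1 array or another was left out, with limma adjusted p up to 0.317. Irs2 changed by 0.08 ± 0.12 in serial-transplant long culture and -0.08 ± 0.11 in young-donor long culture. Grb10, an imprinted inhibitor of both receptors, changed by -0.53 ± 0.21 (0.152) in serial-transplant long culture and 0.00 ± 0.18 in young-donor long culture.

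Of 24 PI3K, Akt and mTOR genes, 21 were measured, and 2 fell and 2 rose in serial-transplant long culture while 1 fell and 2 rose in young-donor long culture. With 8.74% and 11.3% of all probe sets called in these comparisons, the list medians were 0.10 and 0.07, against -0.01 and -0.04 over all genes. Pik3r1, the main regulatory subunit of PI3K, had signals of 8.26 and 8.06 in serial-transplant long culture, 8.09, 8.11 and 8.10 in young-donor long culture, and 8.83, 9.72 and 8.87 in young-donor short culture. It fell by 0.98 (limma adjusted p = 0.0196) and by 1.04 (0.00869) against young-donor short culture, the first call being lost without either serial-transplant array (up to 0.215). Pik3r3, another regulatory subunit gene, rose (0.52 and 0.65), as did Rictor, a subunit of mTOR complex 2 (0.48 and 0.52), and Pik3cd, a catalytic subunit gene of leukocytes, fell in serial-transplant long culture (-0.70). Without 1 array or another these calls were lost, except that of Pik3r3 in young-donor long culture (limma adjusted p up to 0.367).

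The Igf2bp genes are known targets of let-7 miRNAs, and of 10 listed genes of the let-7 and Lin28 axis 9 were measured. In serial-transplant long culture 1 fell and 1 rose (8.74% of all probe sets were called) and in young-donor long culture 1 fell and 2 rose (11.3%), with list medians of 0.05 and 0.06. Myc, whose mRNA is bound by IGF2BP1, fell in serial-transplant (-1.31) and in young-donor long culture (-0.95), and Lin28a, which blocks let-7 processing, rose in both (0.74 and 0.45). Dicer1, which cuts miRNA precursors, rose in young-donor long culture (0.41). Without serial-transplant replicate 2, Myc and Lin28a lost their serial-transplant calls (limma adjusted p of 0.106 and 0.0972), and in young-donor long culture Myc lost its call without young-donor long-culture replicate 3 (0.0550) and Lin28a and Dicer1 without any of 5 and 2 arrays (up to 0.0813). Of 9 let-7 hairpins with a probe set, looked up after the other values were seen, 1 was called, Mirlet7c-1 in young-donor long culture (-0.69), where 11.3% of all probe sets were. Its signals of 3.27 to 4.36 are dim, since the lower quartiles of the 8 arrays lie at 5.32 to 5.52.

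Of 14 genes of the imprinted growth network to which Igf2 belongs, 13 were measured, and 4 fell and 2 rose in serial-transplant long culture while 2 fell and 3 rose in young-donor long culture, each against young-donor short culture. The shares of all probe sets called there were 8.74% and 11.3%, and the list medians were 0.08 and -0.05, against -0.01 and -0.04 over all genes. Dlk1, a paternally expressed Notch-related ligand gene, fell in serial-transplant (-1.41) and in young-donor long culture (-1.09), as did Dcn, the decorin gene that is also on the fibroblast list (-1.58 and -1.16). Plagl1, the zinc finger gene that can activate Igf2 and other genes of the network, had signals of 9.33 and 8.62 in serial-transplant long culture, 9.83, 9.49 and 9.81 in young-donor long culture, and 10.00, 10.49 and 9.95 in young-donor short culture. It fell by 1.17 (limma adjusted p = 0.00858) in serial-transplant long culture against young-donor short culture. Peg10, a retrotransposon-derived gene, and Ndn, the necdin gene, both paternally expressed like Igf2, rose in serial-transplant (0.67 and 0.70) and in young-donor long culture (1.39 and 0.97). Mest was the further fall in serial-transplant long culture (-0.97) and Phlda2 the further rise in young-donor long culture (0.40), named because the counts are small. Without serial-transplant replicate 2 all 6 serial-transplant calls were lost (limma adjusted p between 0.0847 and 0.496). Among the young-donor calls those of Dlk1, Peg10 and Ndn held with each array left out in turn, that of Dcn was lost without young-donor long-culture replicate 3 (0.0557) and that of Phlda2 without any of 7 arrays (up to 0.177).

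None of the genes of these 7 lists was called between serial-transplant and young-donor long culture, where limma called 0 of 28939 probe sets. The list medians there were 0.07 for ligands and receptors, -0.07 for other binding proteins, -0.01 for proteases, 0.06 for adaptors, 0.00 for PI3K, Akt and mTOR genes, -0.10 for the let-7 axis and -0.24 for the imprinted network, against 0.01 over all genes. The changes there were -0.10 ± 0.15 for Igf2r, 0.18 ± 0.15 for Insr, 0.15 ± 0.12 for Irs2, -0.14 ± 0.14 for Igfbp6, and -0.53 ± 0.21 for Grb10 (limma adjusted p = 0.619), beside the -1.52 of Igf2.

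**Figure D5:**
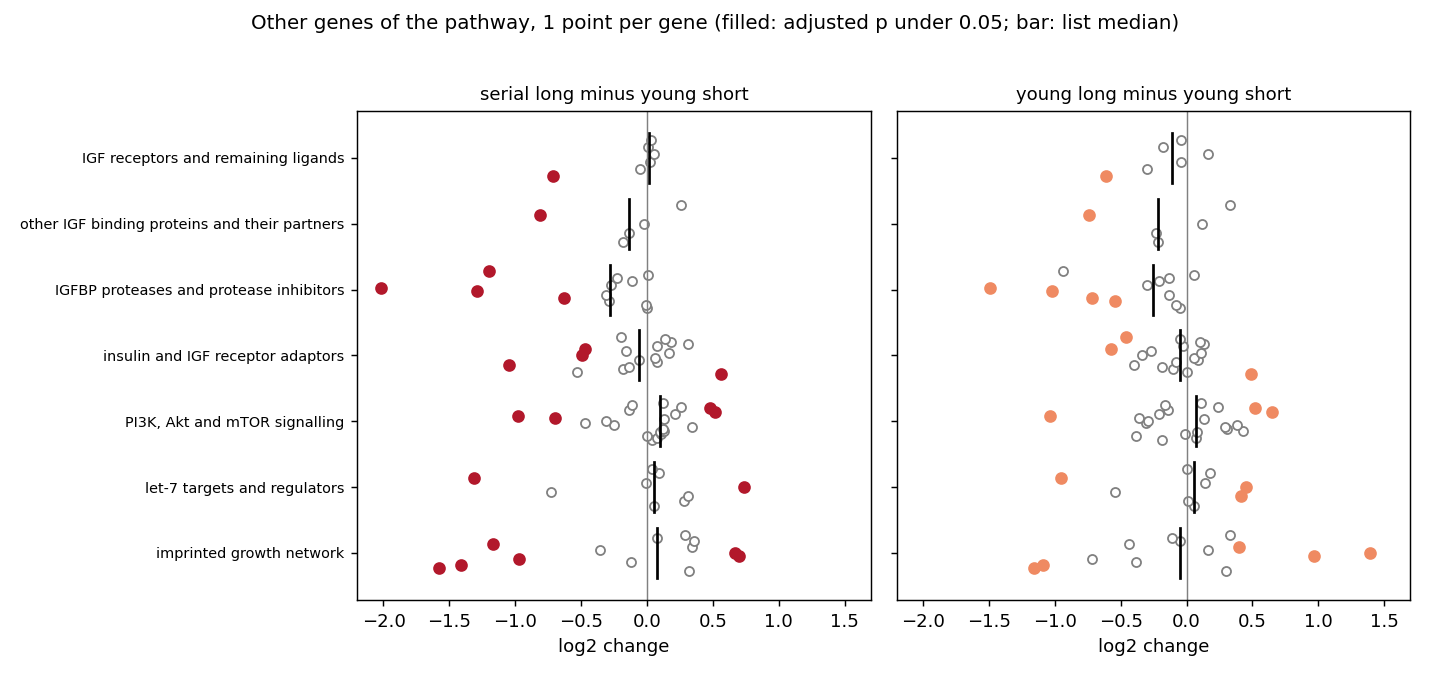
Log2 change (horizontal axis) of every measured gene of 7 lists around the IGF system, 1 point per gene, for serial-transplant long minus young-donor short culture (left) and young-donor long minus young-donor short culture (right). Filled points passed an adjusted p of 0.05 and black bars are list medians, which lie between -0.28 and 0.10 on the left. The points farthest to the left are Mmp3 (-2.02 and -1.49).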

How the data were processed

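The deposited values are log2 signals, 1 per probe set and array, which the authors made by RMA in Partek 6.4 (per the submitters' processing notes), from biotin-labelled cRNA on Affymetrix arrays per the labels' protocols; their settings are unknown here, and the log2 scale was read from the values (2.42 to 14.81). Of 35557 rows, 6618 with identifiers before the first probe set that has a gene name were taken for controls and left out. Of 28939 tested probe sets, 21789 carry 1 symbol, 1621 several and 5529 none; 21698 of the first were found by gene number in RefSeq (GRCm38.p6). Coordinates and distances printed are those of RefSeq (GRCm38.p6), none of them of probe sets, since no source used here names the array's build.

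All 8 arrays entered 1 two-sided limma fit (version 3.58.1, R 4.3.3) with a coefficient per group, which had 5 residual degrees of freedom and 6.28 from the prior. The step was tested on simulated data. Group errors are SD, errors of changes SE. The 9 genes, the 7 pathway and 7 marker lists and the tests were chosen with earlier results of these data known. Named genes are the members, up to 4 called genes per list and comparison by p, 8 listed genes (Igf2r, Insr, Irs1, Irs2, Igfbp6, Igfbp7, Pappa and Grb10) given always, and the 3 genes most correlated with each member. Alternatives were array weights, the intensity trend, fewer groups in a fit, only probe sets above the median, quantile normalization, centring on array medians, the replicate number as a block, a log2 change of at least 0.5, the mean of a gene's probe sets, and each array left out.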

Additional observations from a re-analysis of the deposited data

How the results depend on the processing

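The 27 changes of the 9 genes were recomputed under 16 alternatives each, and of 432 values 407 kept their direction and their side of the threshold, 8 no longer passed, 5 newly passed and 12 changed sign, none of these sign changes in a called result. The count of called genes between serial-transplant and young-donor long culture was 0 and became 1 (Igf2) with array weights, with only the 2 groups in the fit and in the fit with the replicate number as a block (replicate block). With 1 array left out it ran from 0 to 1. Between serial-transplant long and young-donor short culture the count of 4 became 2 with only the 2 groups in the fit and 1 without serial-transplant replicate 2, in a range of 1 to 4 with 1 array left out. Between young-donor long and short culture the count of 1 became 2 with array weights and ran from 0 to 1 with 1 array left out. Numbers of all called probe sets moved too. Young-donor long against short culture had 3260, but 5076 with array weights, 2083 with a log2 change of at least 0.5 as well, and 1091 to 3195 with 1 array left out. Serial-transplant long against young-donor short culture had 2528, but 1251 with only the 2 groups in the fit and 66 to 2817 with 1 array left out (66 without serial-transplant replicate 2). Serial-transplant against young-donor long culture had 0, but 22 with array weights, 15 with only the 2 groups, 4 with the block and 0 to 11 with 1 array left out. The causes were not tested beyond the smaller number of arrays that some settings use.

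Changes of sign were limited to small values. With array weights Igf2bp1 became -0.01 between the young-donor groups and Igfbp3 -0.01 between serial-transplant and young-donor long culture. With 1 array left out, the changes between young-donor long and short culture ran from -0.20 to 0.01 for Igf2, -0.11 to 0.23 for Igf2bp1, -0.05 to 0.25 for Igfbp2 and -0.01 to 0.32 for Igfbp5. Those between serial-transplant and young-donor long culture ran from -0.05 to 0.05 for Igfbp3 and -0.52 to 0.15 for Igfbp4, and those between serial-transplant long and young-donor short culture from -0.25 to 0.08 for Igf2bp1 and -0.01 to 0.19 for Igf2bp3.

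The replicate number changed no other call among the 9 genes. Deviations of same-numbered young-donor arrays from their group means correlated at 0.08, 0.18 and 0.10, not all above 0.1, and those of serial-transplant and young-donor short culture at -0.18 and -0.27, so the numbers were not taken as pairs. The small number of arrays, 2 or 3 a group, limits the precision of all values.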
